A study of Mus musculus with 2 samples.

Results

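The basal transcription machinery and Mediator were followed here through every probe whose gene symbol begins with Gtf2, Gtf3, Polr1, Polr2 or Polr3, or with Taf or Med and then a number. These names chose 198 of the 45281 probes and 97 of the 19057 genes that the annotation names by a unique symbol. RNA came from bone marrow LSK cells (lineage- Sca1+ c-Kit+), a surface phenotype that holds blood stem cells and early progenitors, of C57BL/6J mice. The Control sample and the Ago2 Hem KO sample were each measured on 1 Illumina bead array. Ago2 encodes an Argonaute protein, which carries microRNAs to the messenger RNAs they silence, and the comparison asks how transcripts differ when it is deficient. No source used here gives the driver of the deletion, the number of animals pooled, or their age and sex. With 1 array per genotype there are no replicates, so no test was possible and no error between animals can be given. Having so few arrays limits how precise any value can be.

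RNA polymerase I makes the large ribosomal RNA, RNA polymerase II makes messenger RNA, and RNA polymerase III makes transfer RNA and other small RNAs. Each needs general factors to find and open a promoter. For polymerase II these are TFIIA, TFIIB, TFIIE, TFIIF and TFIIH, encoded by Gtf2 genes and their partners, and TFIID, built from the TATA-binding protein and its associated factors (TAFs). Mediator, a large complex of head, middle, tail and kinase modules, carries signals from bound activators to polymerase II. These complexes work in every dividing cell type.

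The sequences upstream of 4 members are shown because these genes lay among the farthest from 0 in the comparison. Med28 and Polr2l were higher in the Ago2 Hem KO sample, and Polr3b and Med16 were lower. Each is the 250 bases before a transcription start given by RefSeq in build GRCm38.p6, 5′ to 3′ on the strand of the gene, at chr5:45519979-45520228 (+), chr7:141475154-141475403 (-), chr10:84622048-84622297 (+) and chr10:79908939-79909188 (-) in the order printed. Capitals mark matches, on either strand, to the GC box (letters GGGCGG), the CCAAT box, the TATA box (letters TATAAA), the ETS core (letters CCGGAAG) or the CRE core (letters TGACGT).
Med28: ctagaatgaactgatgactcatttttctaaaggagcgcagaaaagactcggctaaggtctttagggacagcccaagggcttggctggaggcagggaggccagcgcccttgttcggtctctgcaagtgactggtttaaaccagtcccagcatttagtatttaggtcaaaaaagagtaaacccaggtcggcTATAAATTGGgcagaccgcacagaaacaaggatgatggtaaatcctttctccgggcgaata
Polr2l: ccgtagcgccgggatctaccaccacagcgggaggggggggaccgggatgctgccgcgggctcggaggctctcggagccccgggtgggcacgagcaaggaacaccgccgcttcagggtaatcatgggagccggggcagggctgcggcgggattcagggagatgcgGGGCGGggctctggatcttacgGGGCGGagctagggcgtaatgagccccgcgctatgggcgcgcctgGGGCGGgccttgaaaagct
Polr3b: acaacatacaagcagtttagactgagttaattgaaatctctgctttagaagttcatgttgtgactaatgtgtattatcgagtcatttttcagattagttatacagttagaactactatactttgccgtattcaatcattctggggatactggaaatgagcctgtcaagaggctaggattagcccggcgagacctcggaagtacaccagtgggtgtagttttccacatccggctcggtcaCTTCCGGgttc
Med16: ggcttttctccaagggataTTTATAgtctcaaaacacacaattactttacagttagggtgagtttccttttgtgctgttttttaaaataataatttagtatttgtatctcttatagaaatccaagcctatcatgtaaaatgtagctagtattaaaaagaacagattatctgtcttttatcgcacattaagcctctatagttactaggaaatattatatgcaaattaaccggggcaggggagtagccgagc
The Med28 window held a TATAAA match that shares a base with a CCAAT match on the other strand. The Polr2l window held 3 GC boxes and was 71.2% G and C. The Polr3b window held an ETS core near its end, across the edge of the annotated gene, which begins a few bases before this start, and the Med16 window, at 33.2% G and C, held a TATAAA match only near its far end. Upstream windows were found for 85 of the 97 genes, 101 windows in all, against 32851 windows for all genes in the table. The ETS core was present in 26 member windows (25.7%) and in 6.91% of all windows. The GC box was present in 55.4% against 32.7%, the CRE core in 12.9% against 6.47%, and the CCAAT box in 31.7% against 33.8%. TATAAA was found in 11.9% of member windows and 12.4% of all windows. The member windows were also richer in G and C, with a median of 57.6% against 52.4%. Among windows of members that lay above 0 in the comparison, 15 of 32 (46.9%) held CCAAT, against 11 of 49 (22.4%) among those below 0. For the GC box the corresponding shares were 65.6% and 46.9%, and for the ETS core 31.2% and 30.6%. They were 12.5% and 10.2% for TATAAA, and 12.5% and 14.3% for the CRE core. The CCAAT gap was the widest of these, a ranking made after the values were seen. Windows outnumber genes (101 for 85), so a gene can enter these shares through several windows. All these shares are counts of letters, given without a test, and a match is not a bound site.

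The arrays differed in brightness, and this touches every value below. Of the 45281 probes, 32.8% were detected (detection p under 0.01) on the Control array and 34.4% on the Ago2 Hem KO array, with median signals of 88.1 and 91.7. Over the 8212 genes detected on both arrays, the median ratio of raw signals, Ago2 Hem KO over Control, was 1.11. Differences are therefore given after background correction and quantile normalization, as log2 of Ago2 Hem KO minus Control, and a gene's value is that of its brightest detected probe. Ago2 itself was lower on each of its 3 probes, at 288 in Control and 180 in Ago2 Hem KO on the brightest (2.44-fold). No source used here says whether these probes lie in the deleted stretch. Of the LSK markers, Kit, Cd34, Gata2 and Meis1 were detected on both arrays, Flt3 was not detected on either, and Ly6a was not analysed here. The 4 detected genes all lay above 0, at 0.22, 0.30, 0.45 and 0.14. The summed raw signal over 5 LSK genes was 3904 in Control and 5319 in Ago2 Hem KO. Erythroid markers moved with the genotype. Their summed signal over 6 genes was 1363 in Control and 3817 in Ago2 Hem KO, and 4 of 4 detected on both arrays were at least 2-fold higher. The summed raw signals were 1191 and 1080 for 5 B cell genes, and 818 and 1053 for 7 monocyte and macrophage genes. They were 20693 and 22618 for 6 neutrophil genes (a sum carried by S100a8). For 7 T and NK cell genes they were 7674 and 7035 (a sum carried by Nkg7), and for 5 megakaryocyte genes 955 and 1153. After normalization, 0 of the 4 B cell genes detected on both arrays lay above 0, with a median of -0.44. Above 0 lay 2 of 3 monocyte and macrophage genes, 1 of 3 T and NK cell genes and 2 of 4 megakaryocyte genes. The macrophage genes C1qa, C1qb and C1qc passed detection in Ago2 Hem KO alone. Their signals were 90.2, 93.9 and 94.2 in Control, and 108, 164 and 171 in Ago2 Hem KO. The erythroid genes Epor and Slc4a1 also passed in Ago2 Hem KO alone, and the neutrophil gene Mmp9 in Control alone. Among the neutrophil genes detected on both arrays, 1 of 5 lay above 0, and Ltf (-1.003) and Retnlg (-1.12) were at least 2-fold lower. The T cell genes Cd3e, Cd3g, Cd4 and Cd8a, the B cell gene Pax5, the macrophage gene Adgre1 and the platelet gene Ppbp were not detected on either array. The part of these cell types in the results that follow was not tested. In cells measured in bulk, fewer cells of a type and less RNA per cell cannot be told apart.

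The transcription machinery was broadly present in LSK cells of both genotypes. Of the 97 members, 76 (78.4%) were detected on both arrays, against 43.1% of all 19057 genes. Gtf2h5, a small TFIIH subunit, passed detection in Ago2 Hem KO alone, Polr3c, a polymerase III subunit, in Control alone, and 19 on neither array. Of these 2 genes read on 1 array, 0 had a lower bound of 1.5-fold or more, against 5.13% of all such genes. By probe, 121 of 198 were detected on both arrays, 4 in Ago2 Hem KO only, 3 in Control only and 70 on neither. Signals of the 76 ran from 97.9 to 3646.

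The machinery as a whole lay where all genes lay. The 76 members had a median log2 difference of -0.06, against -0.05 for all 8212 genes, and 33 of them (43.4%) lay above 0, against 41.8% of all genes. Their interquartile range was 0.37, against 0.31 over all genes. Med28 was the only member at least 1.5-fold higher (1 of 76), where 1.90% of all genes were, and 0 members were at least 1.5-fold lower, where 1.90% of all genes were also. A 2-fold difference in either direction was reached by 0 members and by 0.438% of all genes. At a smaller fold of 1.2, chosen after the values were seen, 9 members (11.8%) were higher and 14 (18.4%) lower, against 11.2% and 18.1% of all genes. These shares are near those of all genes, so the count of members past a fold sets the group apart in neither direction.

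**Figure D1:**
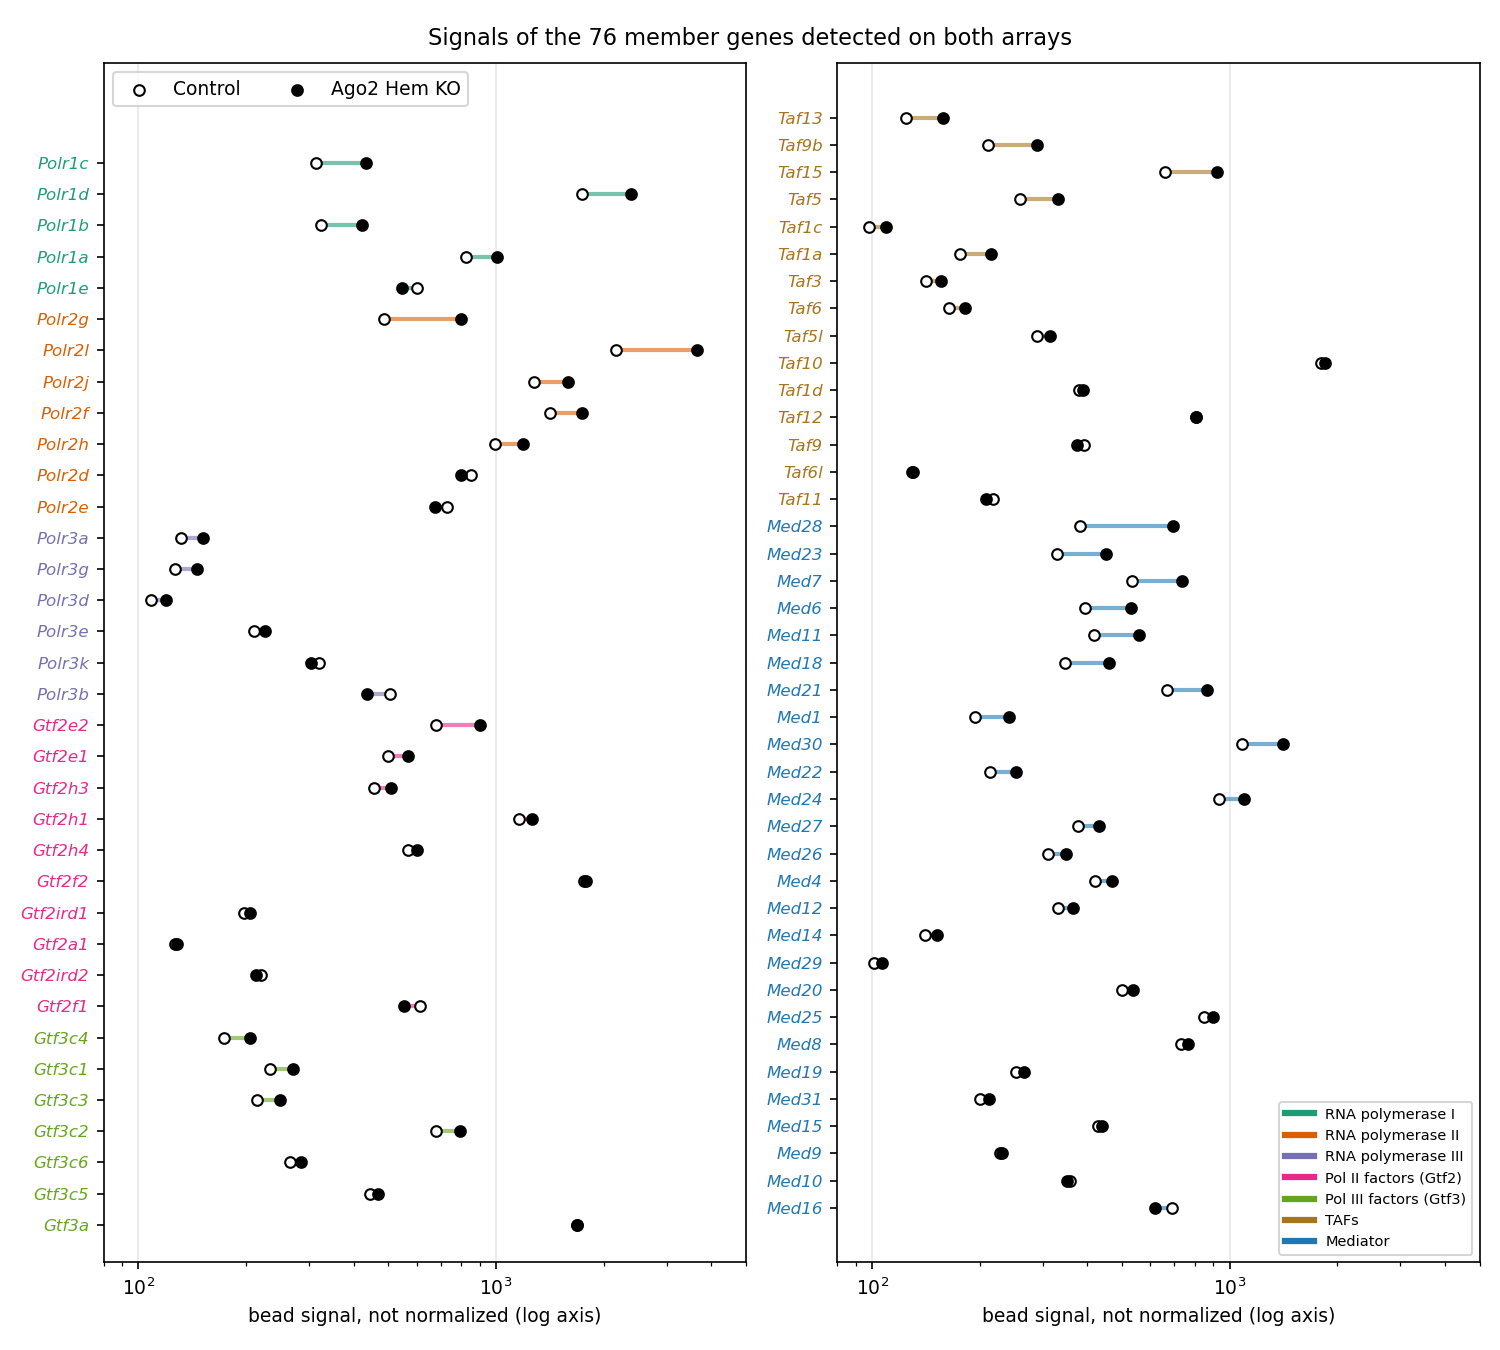
Bead signal before normalization (log axis) of each of the 76 members detected on both arrays, with an open circle for Control, a filled circle for Ago2 Hem KO and the gene names coloured by complex. Most filled circles lie to the right of the open ones, as they do for all genes (median ratio 1.11), and the widest gap is that of Med28, at 382 and 692.

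**Figure D2:**
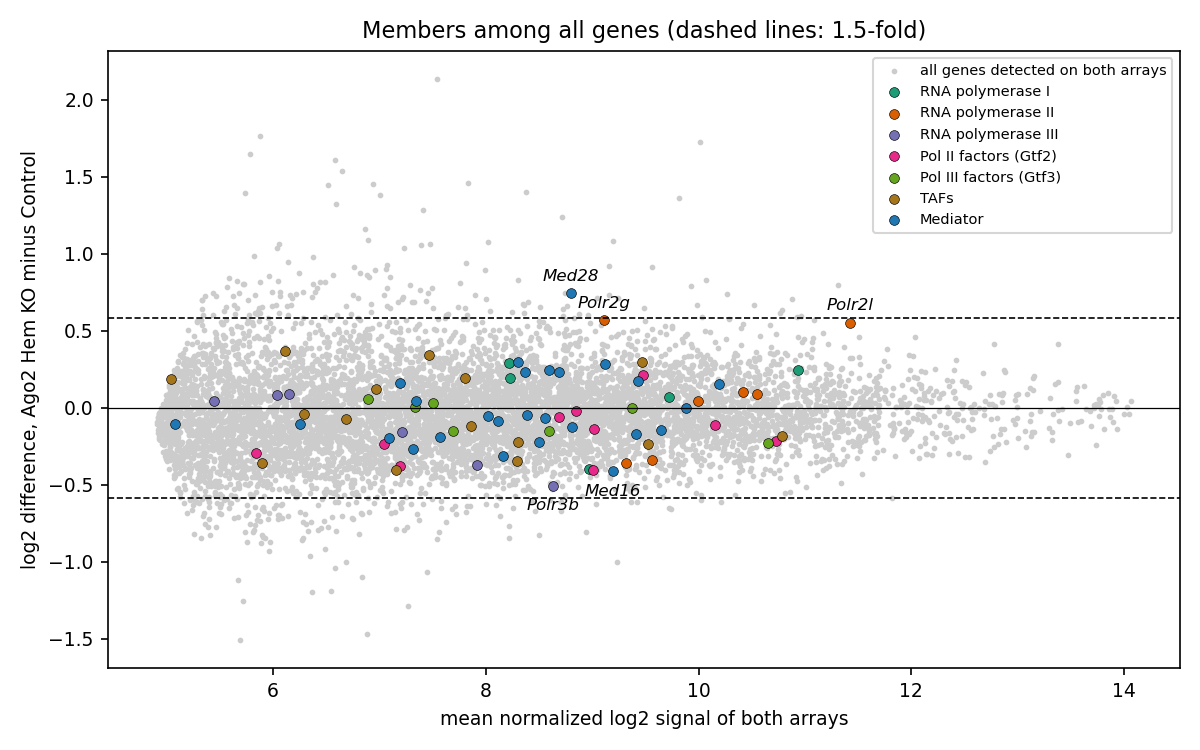
Log2 difference, Ago2 Hem KO minus Control, against the mean normalized log2 signal, for all 8212 genes detected on both arrays (grey) and the 76 members (coloured by complex). Med28 lies above the upper 1.5-fold line, Polr2g and Polr2l lie just under it, and no member lies below the lower line.

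Of the members nearest to the 1.5-fold line, 1 passed it and 3 fell short of it. Med28, a subunit of the Mediator head, had a signal of 382 in Control and 692 in Ago2 Hem KO, a 1.67-fold difference. Polr2g, the polymerase II subunit that forms a stalk with Polr2d, had 485 and 799 (1.48-fold higher). Polr2l, a small subunit shared by all 3 polymerases, had 2160.1 and 3646 (1.47-fold higher). On the other side, Polr3b, the second largest subunit of polymerase III, had 505 and 436 (1.42-fold lower). Each of these 4 genes was read by a single probe, so no other probe checks its value. Cyclic loess put Polr2g and Polr2l past the line at 0.59 and 0.59, scaling to the same median did so at 0.77 and 0.74, and the authors' value table did so for Polr2l (0.60) and not for Polr2g (0.48).

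The RNA polymerase I subunits named Polr1 lay slightly above all genes, with 4 of 5 above 0 (80%, against 41.8% of all genes). Twistnb, Cd3eap and Znrd1, which encode further subunits of this enzyme under other names, lay lower on their brightest probes, at 0.07, -0.00 and -0.13. Other detected probes reached 0.33 for Twistnb and 0.49 for Znrd1, and the second of Cd3eap gave -0.13. All 5 Polr1 genes were detected on both arrays, and their median log2 difference was 0.19. Polr1c and Polr1d, a pair of subunits that polymerase III also uses, had signals of 315 and 1735 in Control and 433 and 2388 in Ago2 Hem KO, differences of 0.29 and 0.25. Polr1b, the second largest subunit, had 324 and 422, a difference of 0.19. Polr1a, the catalytic subunit, had 827 and 1009 on its brightest probe, a difference of 0.07. Its other detected probes differed by -0.20, -0.08 and 0.89, the last on dim signals of 111 and 164, so the probes of Polr1a disagree in sign and by more than 1.5-fold. Polr1e, which helps the enzyme to start and elongate, went the other way, with 600.0 in Control and 546 in Ago2 Hem KO (-0.40). A second probe of Polr1d, at 1575 and 1750.0, differed by -0.07, so its position above 0 rests on 1 of 2 bright probes.

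The RNA polymerase II subunits had the widest interquartile range among the complexes, from -0.15 to 0.33. Of 9, 7 were detected on both arrays, with a median difference of 0.09 and a range from -0.36 to 0.57. Polr2g and Polr2l, given above, were highest. Polr2j, part of the assembly core, had signals of 1280.4 and 1587 (0.10). Polr2f and Polr2h, both shared with the other polymerases, had 1416 and 1738 (0.09), and 994 and 1193 (0.04). Polr2e, a shared subunit near the incoming DNA, had 732 in Control and 677 in Ago2 Hem KO, a difference of -0.36, and its second probe gave -0.32. Polr2d, the stalk partner of Polr2g, had 851 and 799.8 (-0.34), and its 4 probes ran from -0.34 to -0.14. The stalk partners thus lay on opposite sides of 0, a pair picked after the values were seen. Polr2c, another part of the assembly core, and Polr2m, which associates with the enzyme, were not detected on either array, each on 1 probe. Polr2a, Polr2b, Polr2i and Polr2k were not analysed here. Over the 6 measured subunits that more than 1 polymerase uses (Polr1c, Polr1d, Polr2e, Polr2f, Polr2h and Polr2l), the median was 0.17. Of these, 5 lay above 0 (83.3%, against 41.8% of all genes), with Polr2e below.

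The RNA polymerase III subunits lay at the median of all genes. Of 8, 6 were detected on both arrays, with a median of -0.06 and a highest value of 0.09, for the catalytic subunit Polr3a at signals of 131 and 152. Polr3b and Polr3k were lowest. Polr3k, a small subunit that acts in termination, had 320 in Control and 304 in Ago2 Hem KO (-0.37), but -0.00 on its second probe at 212 and 245. Polr3e and Polr3d, which form a pair on the enzyme, differed by -0.16 and 0.04. Polr3g, which helps polymerase III to initiate, had 127 and 146 (0.08). Polr3c, read at 98.2 and 99.5, was called in Control only, with detection p of 0.0096 and 0.0203 on either side of the 0.01 limit. Its normalized values gave a bound of 1.102-fold lower in Ago2 Hem KO, while its raw signal was slightly higher there, so its direction is not settled. Polr3f was not detected. Polr3a, Polr3d and Polr3g were dim, with signals from 108 to 152, where an offset in the background step shrinks differences.

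**Figure D3:**
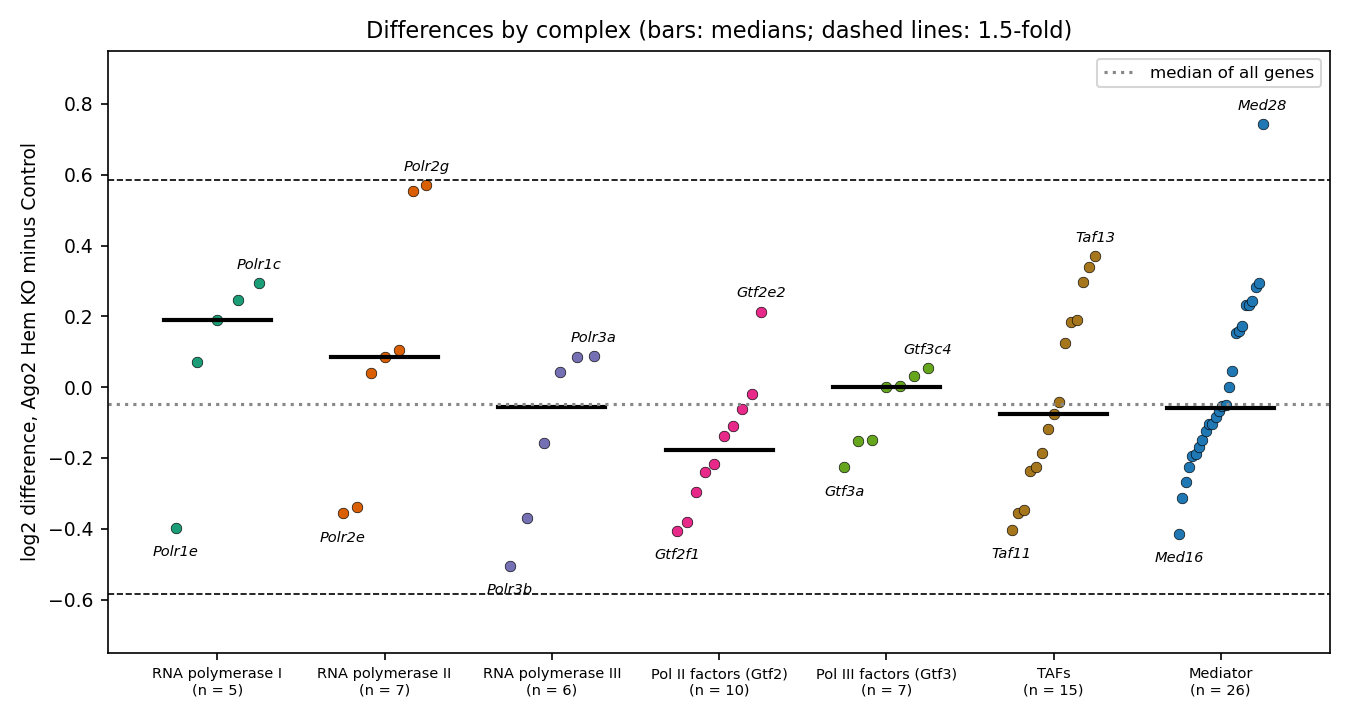
Log2 difference, Ago2 Hem KO minus Control, of each member detected on both arrays, by complex, with bars at the medians, a dotted line at the median of all genes (-0.05) and dashed lines at 1.5-fold. The medians run from -0.18 for the Gtf2 genes to 0.19 for RNA polymerase I, and values of the complexes overlap.

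The Gtf2 genes, which encode general factors of polymerase II, lay mostly below 0. Of 15, 10 were detected on both arrays, with a median of -0.18, against -0.05 for all genes. Of these 10, 9 lay below 0 and 1 above, a share above 0 of 10%, against 41.8% of all genes. None reached 1.5-fold. Gtf2f1 and Gtf2f2, the subunits of TFIIF, which escorts polymerase II to the promoter, had 613 and 1759.7 in Control and 554 and 1780.2 in Ago2 Hem KO, differences of -0.41 and -0.22. Gtf2a1, the precursor of the large TFIIA chains, was dim at 126 and 128 (-0.30). The TFIIH core genes Gtf2h1, Gtf2h3 and Gtf2h4 differed by -0.11, -0.06 and -0.14, and Gtf2h5 was read at 94.996 and 107, a lower bound of 1.07-fold higher in Ago2 Hem KO. Gtf2e2, the small subunit of TFIIE, was the 1 member above 0, at 678 and 902 (0.21), and its second probe gave 0.31. Its partner Gtf2e1 had 498 and 566 (-0.02). The TFII-I relatives Gtf2ird1 and Gtf2ird2, of which the first lies in the interval deleted in Williams syndrome in humans, differed by -0.24 and -0.38, the latter at 220.4 and 213, with second probes at -0.05 and -0.27. Gtf2b, which encodes TFIIB, was read at 86.0 and 95.9 and was not detected, and nor were Gtf2a2, Gtf2a1l or Gtf2i, each on 1 probe. Scaling to the same median put the median of these 10 genes at 0.03 and that of all genes at 0.16, so they stayed below all genes while crossing 0.

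The Gtf3 genes, general factors of polymerase III, spanned the narrowest range of the complexes on their brightest probes. All 7 were detected on both arrays, and these probes lay within 1.2-fold, from -0.23 to 0.05, with a median of 0.00. Gtf3a encodes TFIIIA, which recruits polymerase III to its ribosomal RNA genes. It had 1683 in Control and 1682 in Ago2 Hem KO on its brightest probe (-0.23), and 1196 and 1093 on its second (-0.39). Another, dim probe of Gtf3a, at 108 and 97.4, was detected in Control only and gives a fold of at least 1.51 lower in Ago2 Hem KO. All 3 thus pointed the same way, none of the differences on bright probes reaching 1.5-fold. Among the 6 TFIIIC genes, whose products bind the internal promoters of transfer RNA genes, Gtf3c4 was highest (0.05, at 174 and 205) and Gtf3c5 lowest (-0.15, at 443 and 469). Gtf3c1, Gtf3c2 and Gtf3c3 differed by 0.03, 0.00 and 0.00, and Gtf3c6 by -0.15. The other probes of Gtf3c2 gave 0.38 and -0.13, and those of Gtf3c4 gave 0.28 and 0.10.

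The TAFs were the least often detected class together with the Gtf2 genes, with 15 of 23 (65.2%) detected on both arrays. Their median was -0.08 and 6 of 15 lay above 0 (40%, against 41.8% of all genes). Taf13, Taf9b and Taf15 were highest. Taf13, a histone-fold TAF, had 124 in Control and 157 in Ago2 Hem KO (0.37). Its partner Taf11 was lowest, at 218 and 208 (-0.40), so this pair too lay on either side of 0, again picked after the values were seen. Taf15, an RNA-binding protein found with some TFIID, had 659 and 922 (0.30). Taf10, shared by TFIID and the SAGA coactivator, had 1802 and 1848 (-0.19), and Taf12 had 802 and 804 (-0.24), its 4 probes running from -0.24 to 0.05. Taf6l and Taf5l, which belong to SAGA in place of TFIID, differed by -0.36 and -0.12. Of the SL1 genes, whose products guide polymerase I to ribosomal RNA genes, Taf1a, Taf1c and Taf1d differed by 0.12, 0.18 and -0.22, and Taf1b was not detected. The second probe of Taf1d, at 266 and 359, gave 0.29, so its probes disagree in sign.

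The paralogs Taf9 and Taf9b differed in direction, on probes that do not all agree. Taf9, a histone-fold subunit of TFIID and SAGA, had 392 in Control and 374 in Ago2 Hem KO on its brightest probe (-0.35). A second Taf9 probe, at 92.1 and 130.3, was detected in Ago2 Hem KO only, with a lower bound of 1.75-fold higher, and the other was not detected. Taf9 overlaps Ak6 in the RefSeq annotation, and which transcript each probe reads was not tested. Taf9b had 211 and 288 on its brightest probe (0.34) and 131 and 144 on its second (-0.06). Taf6, the partner of Taf9, differed by -0.08, 0.17 and -0.48 on its 3 probes, at signals from 106 to 181. The largest TFIID subunit gene, Taf1, was read at 89.9 and 91.7 on 1 probe and was not detected, and nor were Taf2, Taf4, Taf4b, Taf7, Taf7l or Taf8. A probe at background says only that these probes did not report the transcript. The remaining detected TAFs, Taf5 and Taf3, differed by 0.19 and -0.04 on their brightest probes, with second probes at -0.27 and 0.45.

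Mediator was the most fully detected of the larger classes, with 26 of 30 genes (86.7%) on both arrays. Its median was -0.06, with 10 of 26 above 0 (38.5%, against 41.8% of all genes), and 20 lay within 1.2-fold. In the head module, 11 of 12 genes were detected, with a median of 0.05 and 6 above 0 (54.5%). After Med28 its highest members were Med6 (394 and 528, 0.24), Med11 (418 and 556, 0.23) and Med18 (346 and 461, 0.23). Med11 and Med18 had second probes at -0.05 and -0.24. The brightest signals in the head came from the Med30 probe, at 1085 and 1409 (0.15). Med19, counted here with the head, was lowest at -0.19, and Med17, a central head subunit, was not detected on its 1 probe. Med8, at 733 and 766, gave -0.17 on its brightest probe and 0.15 on the next. Med20, Med22, Med27 and Med29 lay between -0.12 and 0.05.

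The middle module was detected in full, 8 of 8, with a median of -0.06. Med7 was highest, at 535 in Control and 736 in Ago2 Hem KO (0.28), followed by its binding partner Med21 (667 and 865, 0.17). Med1, which nuclear receptors and GATA factors contact, had 193 and 242 (0.16) and -0.06 on a second probe. Med10 was lowest, at 359 and 351 (-0.31), and Med9 had 228 and 231 (-0.27). Med4, Med26 and Med31 differed by -0.07, -0.05 and -0.19. The scaffold gene Med14 had 141 and 152 (-0.10), and its 3 probes ran from -0.44 to -0.10.

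The tail module, which activators contact, had 5 of 5 genes detected and a median of -0.15. Med16 was lowest among all Mediator genes, at 690 in Control and 620.0 in Ago2 Hem KO (-0.41). Med23 was highest in the tail, at 329 and 452 (0.30), with a second probe at 0.15. Med15, Med24 and Med25 differed by -0.23, 0.00 and -0.15, and Med15 and Med25 each had a probe with the opposite sign. In the kinase module, which restrains Mediator, Med12 had 330.0 and 365 (-0.08). Its paralog Med12l, and Med13 and Med13l, were not detected on any of their 7 probes. The remaining partners of this module, Cdk8, Ccnc and Cdk19, were detected and differed by 0.28, 0.08 and -0.22 on their brightest probes. Detected probes of Ccnc ran from -0.15 to 0.28, and those of Cdk19 from -0.22 to 0.23.

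Probes of the same gene give the only measure of spread in these data. Of the members, 31 had at least 2 probes detected on both arrays. The brightest and the next probe differed by a median of 0.22 on the log2 scale, against 0.18 over 3016 genes of all kinds. They had the same sign in 18 of 31 members (58.1%), against 63.8% of all such genes. Of 121 member probes detected on both arrays, 2 were at least 1.5-fold higher (1.65%, Med28 and the dim Polr1a probe), against 2.31% of all named probes, and 0 were lower by that much, against 1.75%. In the RefSeq annotation, 20 of the 97 members overlap another protein-coding gene, among them Taf10 with Ilk, Gtf3a with Mtif3 and Polr1e with Fbxo10, and which of the pair a probe reads was not tested. The second probes of Taf12, Polr2e, Polr2d, Med19, Gtf3c5 and Gtf2e2 came within 0.10 of the first.

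**Figure D4:**
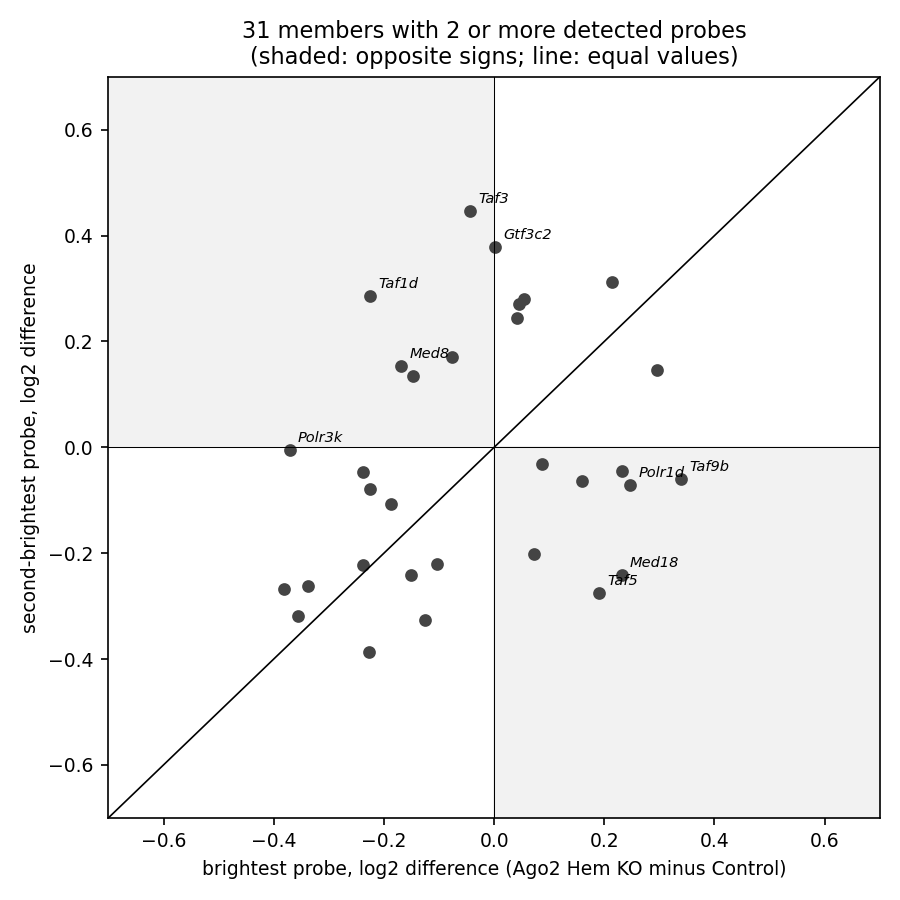
Log2 difference, Ago2 Hem KO minus Control, of the second-brightest probe against that of the brightest probe, for the 31 members with at least 2 probes detected on both arrays. Points in the shaded quadrants, 13 of 31, have opposite signs, and the largest gap is that of Taf1d at 0.51.

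By signal level, members past 1.5-fold were few in every band. Of 10 members with a mean raw signal under 150, 0 were 1.5-fold apart, where 6.47% of all such genes were. Between 150 and 500, 0 of 36 were, against 4.16%. At 500 or more, 1 of 30 was (Med28), against 1.43%. The interquartile range of members was 0.19 against 0.37 for all genes in the dimmest band, 0.36 against 0.34 in the middle band and 0.38 against 0.26 in the brightest.

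Genes that work beside the machinery showed the same picture, with Ccnt2 standing out. Of 67 such genes with a probe, listed from textbook roles, 58 were detected on both arrays, with a median of -0.05. Ccnt2, a cyclin partner of Cdk9 in the kinase that releases paused polymerase II, had 180.0 in Control and 350.1 in Ago2 Hem KO on its brightest probe (1.06), while its lowest detected probe gave 0.00. Hexim1, the inhibitor of that kinase, was lowest, at 192 and 177 (-0.52), while Cdk9 and Ccnt1 differed by -0.04 and -0.01. Among 18 detected pausing and elongation genes the median was -0.06. The 7 polymerase I partners, Twistnb, Cd3eap and Znrd1 among them, had a median of 0.07, with Pwp1 at 101 and 133 (0.72) and the initiation factor gene Rrn3 at 143 and 200.02 (0.51), and Znrd1 lowest (-0.13). Of the 7 polymerase III partners detected of 10, with a median of -0.07, Snapc4 was highest (0.20) and Brf2 lowest (-0.38). Among partners of TFIIH, Ercc3, a helicase that opens the promoter, had 1346 and 1168 (-0.44), Mnat1 629 and 589 (-0.35), Ercc2 0.15 in difference and Ccnh 0.34. The second probes of Ercc3 and Mnat1 gave -0.14 and -0.29. The TATA-binding protein gene Tbp had 392 and 399 on its brightest probe (-0.24), and its detected probes ran from -0.24 to 0.18. Btaf1, whose product removes the TATA-binding protein from DNA, had 399 and 617 (0.49). The 11 genes of polymerase assembly and CTD phosphatases had a median of -0.16, from Rpap3 (-0.40) to Rprd1b (0.23), and the 6 genes of mitochondrial transcription -0.12, from Tfam (-0.22) to Tfb1m (0.29). In all, 2 of the 58 were at least 1.5-fold higher and 0 lower, against 1.90% of all genes in each direction.

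**Figure D5:**
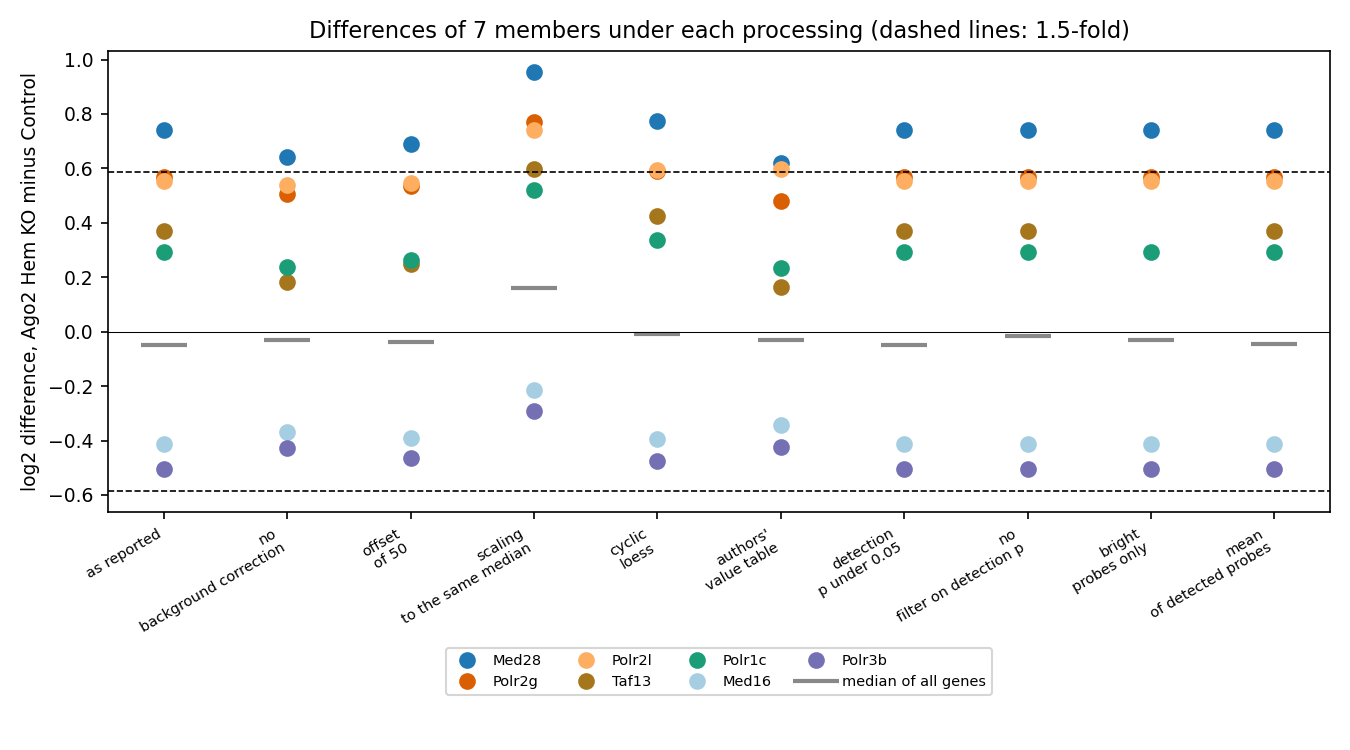
Log2 difference, Ago2 Hem KO minus Control, of 7 members far from 0, with each processing alternative on the horizontal axis, a grey bar at the median of all genes and dashed lines at 1.5-fold. Med28 stays above the upper line throughout, Polr2g and Polr2l cross it under some settings, and scaling to the same median puts every point higher than reported.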

How the data were processed

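Total RNA of LSK cells was amplified, biotin-labelled and measured on Illumina bead arrays, 1 for Control and 1 for Ago2 Hem KO, per the labels' protocols. The authors deposited a table of mean bead intensity on a linear scale, not normalized, per the file headers. The same deposited table holds a detection p-value per probe, in steps of 1 in 936. Per the submitters' processing notes, the software was BeadStudio, with no version stated. A further table deposited by the authors gives normalized intensity on a linear scale. How it was normalized was not stated, and its log2 served as an alternative only.

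From the non-normalized signals, normexp background correction with parameters inferred from the detection p-values, an offset of 16, quantile normalization and log2 were run with limma 3.58.1 in R 4.3.3. The offset shrinks differences of dim probes, and quantile normalization removes a change shared by most genes. Detected means a detection p under 0.01. A gene took the value of its brightest probe detected on both arrays. A gene or probe detected on 1 array has a lower bound, against the higher of its own dim value and the lowest detected value of that array.

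Probes were named through the platform annotation, updated by gene identifier with the RefSeq table of GRCm38.p6 (34807 of 34885 probes with 1 symbol matched), which changed no member's symbol. Upstream sequences are from RefSeq. Members and lists were chosen with earlier results of these data known. The members named in the text are those past 1.5-fold, the highest, lowest and brightest of each complex, paralogs, and genes whose probes disagree, and the rest are named to account for every member. Companion and marker lists came from textbook roles. The steps were tested on simulated arrays with known changes. No test of a difference was possible with 1 array per genotype. Alternatives changed the background step (none, or an offset of 50), the normalization (cyclic loess, median scaling, or the authors' own values), the detection filter (p under 0.05, none, or bright probes only), the summary of probes (their mean) and the symbols (as annotated).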

Additional observations from a re-analysis of the deposited data

How the results depend on the processing

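Med28 stayed at least 1.5-fold higher under all 10 alternatives, from 0.62 to 0.96 on the log2 scale, and 0 members were 1.5-fold lower under any. The count of members at least 1.5-fold higher, 1 as reported, was 4 under scaling to the same median (Med28, Polr2g, Polr2l and Taf13), 3 under cyclic loess and 2 in the authors' value table. Scaling to the same median moved the median of all genes from -0.05 to 0.16, and with it the member medians, to 0.17 for all members, 0.15 for Mediator, 0.034 for the Gtf2 genes, 0.20 for the Gtf3 genes, 0.42 for polymerase I, 0.27 for polymerase II, 0.17 for polymerase III and 0.17 for the TAFs. It also changed the share of all genes at 1.5-fold from 1.90% higher and 1.90% lower to 6.44% and 0.402%. With bright probes only, the polymerase III median was -0.44. That alternative keeps only Polr3b and Polr3k, the lowest of this class, and drops the dimmer Polr3a, Polr3d, Polr3e and Polr3g. A median or gene was taken as moved when it shifted by more than 0.18, the median gap between probes of a gene. By that measure 653 of 738 single-gene values held, 74 moved under scaling to the same median and 11 under another alternative. Relative to the median of all genes, 67 of the 76 members kept their side under every alternative. Relative to 0, the line that the counts above 0 and the split of upstream windows use, 49 of the 76 kept their sign under every alternative. No paired analysis was possible because each genotype has 1 array. Leaving out an array was not possible either. Dim probes limit what can be said of the 19 members not detected.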
